A study of Mus musculus with 4 samples.

Results

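The replication-dependent histone genes were examined in neural progenitor cells of the mouse neocortex labelled as Mcph1 knock-out or wild type. Mcph1 encodes microcephalin, a protein that restrains chromosome condensation. Features of the deposited table were taken as members when their symbol was that of a clustered histone gene (the Hist1 to Hist4 nomenclature, H1, H2a, H2b, H3 or H4), which gave 56 of 11160 features. There were 4 H1, 13 H2a, 16 H2b, 9 H3 and 12 H4 members, and 2 joint features that held genes of more than 1 type. Of the members, 3 were joint features with 2 symbols and 1 was a pseudogene, Hist3h2bb-ps.

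RNA was measured in 4 libraries, 2 labelled as Mcph1 full knock-out (KO 1 and KO 2) and 2 as wild type (WT 1 and WT 2). The embryos were of strain C57BL/6J and 12.5 days old (embryonic day 12.5), and the cells were grown as neurospheres, free-floating clumps of dividing progenitors, from the dorsal telencephalon. Cultures started from single embryos were pooled within a genotype before sequencing, so each library is a pool and a p-value measures only the spread between such pools. The labels name no promoter or Cre driver for the knock-out. Mcph1 itself had 19.6 CPM in KO 1 and 20.3 CPM in KO 2, both labelled KO, beside 21.1 CPM in WT 1 and 21.6 CPM in WT 2 (log2 fold change -0.10, SE 0.24, limma adjusted p = 0.922), so its level does not check the labels. CPM here stands for TMM-scaled counts per 1000000, and a fold change is KO minus WT on the log2(scaled value + 1) scale.

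Recovered reads numbered 10936719 in KO 1, 5975471 in KO 2, 7109365 in WT 1 and 22347416 in WT 2. Histone members held 93722, 37688, 45577 and 274154 of them in the same order of libraries, and the member with the fewest reads had 23, 15, 41 and 135. All 56 members passed the filter on low values. Progenitor markers such as Nes and Sox2 were measured for 16 of 20 genes, with sums of 6580 and 9314 CPM in KO 1 and KO 2 and 13156 and 13485 CPM in WT 1 and WT 2; none of the listed microglial, endothelial, mesenchymal or erythroid markers had a feature in the table. The summed level of 18 measured neuron markers came to 2723 and 1097 CPM for KO 1 and KO 2, whereas WT 1 and WT 2 had 1220 and 1379 CPM. KO 1 thus stood apart from the other libraries in neuron markers. The 6 measured astrocyte markers summed to 904 and 1399 CPM in KO 1 and KO 2 and to 1962 and 880 CPM in WT 1 and WT 2, so the WT libraries differed in them. The 9 measured oligodendrocyte-lineage markers summed to 1046 and 1228 CPM in the KO libraries and 1274 and 1410 CPM in the WT libraries. In bulk RNA, fewer cells of a type and less RNA per cell cannot be told apart.

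Replication-dependent histones package newly made DNA. Nucleosomes wrap DNA around a core of H2A, H2B, H3 and H4, and H1 binds the linker between them. Each core type is encoded by many near-identical gene copies, whereas the H1 genes differ more from one another. Most of these genes are grouped in clusters, and they are transcribed together in S phase. Their mRNAs carry no poly(A) tail and end in a short stem-loop that SLBP binds for processing, translation and decay.

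The stem-loops at the 3′ ends are shown first, because the H4 genes carry their own version of this element. A perfect stem of 6 base pairs starting with GG, around a loop of 4 bases starting with T, was found in GENCODE M21 transcripts of 41 of the 58 histone genes in the 56 features. In the 30 such genes outside H4 the 5′ arm read GGCTCT, whereas in the 11 H4 genes it read GGCCCT in 9 and GGTCCT in 2, Hist1h4b and Hist1h4j. No such stem was found in the annotated transcript of Hist1h4k, which is 312 bases long. An annotated transcript that ends before the stem-loop cannot show it, so a stem not found here is not a stem shown to be absent. The following lines give the stem-loop and its flanks for 5 H4 genes and 4 genes of other types, with the stem and loop in capitals.
Hist1h4f: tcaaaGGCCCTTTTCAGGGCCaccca
Hist1h4i: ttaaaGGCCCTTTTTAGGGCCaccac
Hist1h4j: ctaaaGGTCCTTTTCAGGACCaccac
Hist1h4c: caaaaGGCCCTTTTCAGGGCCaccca
Hist4h4: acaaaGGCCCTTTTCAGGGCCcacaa
Hist1h1c: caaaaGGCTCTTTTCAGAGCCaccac
Hist2h2ac: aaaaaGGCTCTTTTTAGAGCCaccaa
Hist1h2bb: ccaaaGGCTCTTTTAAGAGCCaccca
Hist1h3b: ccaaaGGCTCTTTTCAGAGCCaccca

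Promoters also differed between H4 and the other types. RefSeq promoter windows (GRCm38.p6, 250 bases before to 50 after the start) were found for 52 of the 58 genes and searched on both strands for 5 motifs, whose matches overlapped one another in 1 of the 52 windows. GGTCCG, the end of the subtype-specific element known from human H4 promoters, lay in 10 of 11 H4 windows and 2 of 41 windows of other histone genes, against 8.25% of 32851 mouse promoters. CCAAT lay in 3 of 11 H4 windows and in 41 of 41 others, against 37.4% of all promoters. TATAAA, anywhere in the window, lay in 7 of 11 H4, 4 of 9 H3, 7 of 13 H2b, 10 of 15 H2a and 3 of 4 H1 windows, against 13.6% of all. ATTTGCAT, the octamer that POU factors bind, lay in 11 of 28 H2a and H2b windows and in no window of another type, against 1.74% of all. AAACACA, known from H1 promoters, lay in 3 of 4 H1 windows, 1 H2a and 1 H2b window, against 7.18% of all. These are matches of letters in a window, not bound sites. The windows of 7 H2a and H2b gene pairs share 252 to 279 bases, so 1 site can count in 2 windows. The next lines give 3 H4 promoters, chosen for the H4 genes with the smallest p (Hist1h4k and Hist1h4f) and the smallest fold change (Hist4h4), and the H2a gene Hist1h2ab for contrast, with every match to the 5 motifs in capitals. Hist1h4k lies at chr13:21750504-21750803 on the minus strand, Hist1h4f at chr13:23551619-23551918 on the minus strand, Hist4h4 at chr6:136804382-136804681 on the minus strand and Hist1h2ab at chr13:23750838-23751137 on the plus strand.
Hist1h4k: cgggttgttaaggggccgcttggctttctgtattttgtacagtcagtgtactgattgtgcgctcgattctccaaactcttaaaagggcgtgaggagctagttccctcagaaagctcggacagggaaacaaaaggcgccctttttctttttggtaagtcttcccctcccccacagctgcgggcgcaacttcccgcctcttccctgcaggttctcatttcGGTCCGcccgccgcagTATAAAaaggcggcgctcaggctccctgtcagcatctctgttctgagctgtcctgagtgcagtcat
Hist1h4f: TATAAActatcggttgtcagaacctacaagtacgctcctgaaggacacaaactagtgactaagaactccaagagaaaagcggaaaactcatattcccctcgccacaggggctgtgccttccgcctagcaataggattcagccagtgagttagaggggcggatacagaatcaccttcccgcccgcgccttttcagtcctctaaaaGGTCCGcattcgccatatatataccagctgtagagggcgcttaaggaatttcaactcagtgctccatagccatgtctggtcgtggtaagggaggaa
Hist4h4: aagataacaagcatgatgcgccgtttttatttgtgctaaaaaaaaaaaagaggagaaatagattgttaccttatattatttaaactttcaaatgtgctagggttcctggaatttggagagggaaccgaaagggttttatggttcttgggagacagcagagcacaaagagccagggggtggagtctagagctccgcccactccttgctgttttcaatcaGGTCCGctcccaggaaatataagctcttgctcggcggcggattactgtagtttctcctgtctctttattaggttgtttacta
Hist1h2ab: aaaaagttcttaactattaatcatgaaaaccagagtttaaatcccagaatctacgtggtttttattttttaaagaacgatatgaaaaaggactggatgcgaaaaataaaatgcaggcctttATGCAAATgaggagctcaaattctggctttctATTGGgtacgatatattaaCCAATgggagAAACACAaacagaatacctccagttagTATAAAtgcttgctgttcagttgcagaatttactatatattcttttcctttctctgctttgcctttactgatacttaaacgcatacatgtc

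The comparison of KO with WT asked whether the amounts of these mRNAs differed between the libraries labelled Mcph1 knock-out and those labelled wild type. No member passed limma's test across all 10976 features tested, and neither did any other feature (0% called in either direction); adjusted p-values of the members ran between 0.655 and 0.999. At an unadjusted p under 0.05, 9 members were lower in KO libraries and 0 were higher, against a background of 4% lower and 3.58% higher among all features. By edgeR's quasi-likelihood test 0 features were called and 7.91% had an unadjusted p under 0.05. The estimate was lower in KO for 40 of 56 members, against 48.6% of all features, with a median log2 fold change of -0.37 against 0.01 over all features. Among non-members with transcripts of 500 to 1000 bases, 306 of 431 were lower.

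The types differed in how their members were placed. Both KO libraries lay below both WT libraries for 12 of 56 members, against 20% of all features, and 8 of those 12 were H4 genes. No member had both KO libraries above both WT libraries, against 21.1% of all features. The median log2 fold change was -1.06 over H4 members (12 of 12 lower), -0.41 over H3 (8 of 9 lower), -0.37 over H1 (4 of 4 lower), -0.05 over H2a (7 of 13 lower) and 0.07 over H2b (8 of 16 lower). Over the 44 members other than H4 it was -0.20, with 28 lower and 4 in which both KO libraries lay below both WT libraries. Of the 9 members with an unadjusted p under 0.05, 7 were H4 genes, 1 was H2a (Hist2h2aa2) and 1 was H3 (Hist1h3b). These shares describe the lists. No test compared the fold changes of H4 members with those of the other types. On the values as deposited, without TMM scaling, the median over all features was -1.25 and the medians were -2.33 over H4, -1.67 over H3, -1.65 over H1, -1.32 over H2a and -1.20 over H2b, so that only the H2b median lay above that of all features, as it did after scaling.

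**Figure D1:**
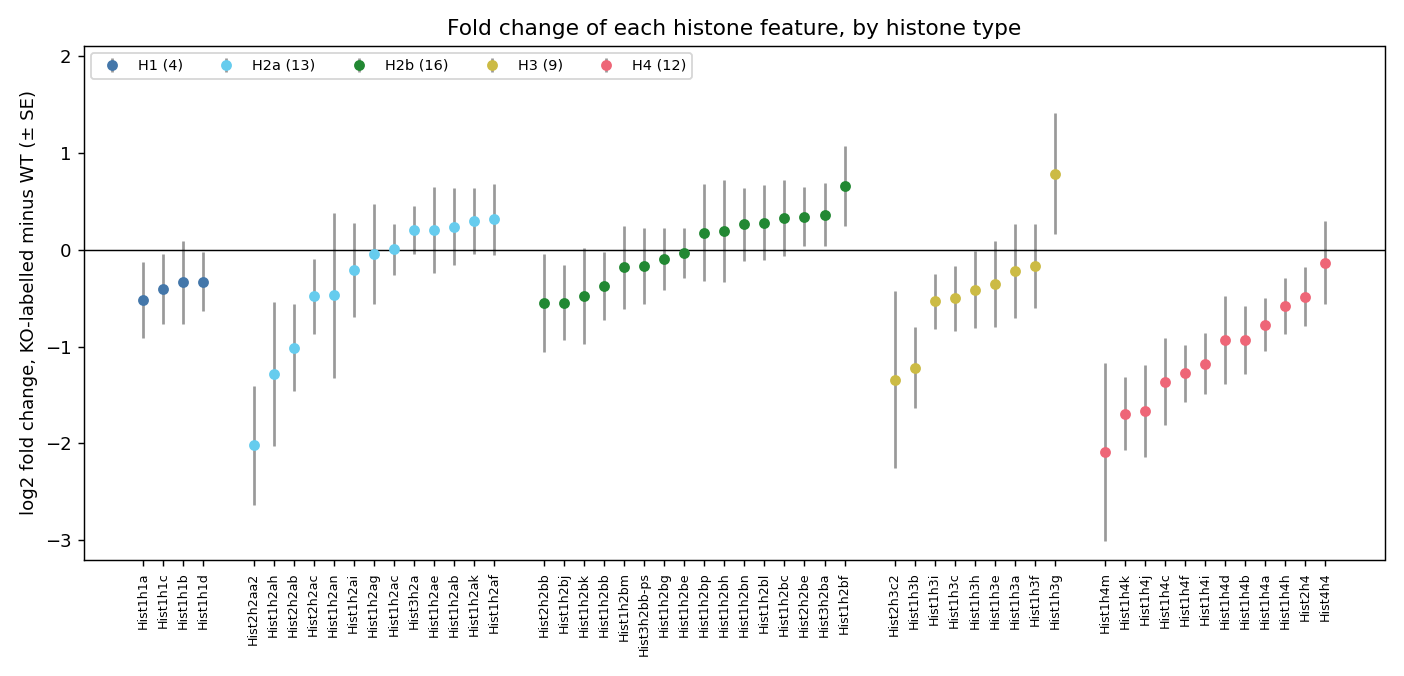
Log2 fold change (KO-labelled minus WT, vertical axis) with its standard error for each histone member, grouped by type and ordered within it; the 2 joint features of mixed type are left out and joint features carry their first symbol. All 12 H4 members lie below 0, between -2.09 and -0.14, while H2a and H2b members lie on both sides.

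The placing differed between single libraries of a group. WT 2 was the highest of the 4 libraries for 48 of 56 members, against 25.4% of all features, and WT 1 was below WT 2 for 53 of 56, against 50% of all. The astrocyte markers ran the other way between these libraries, with sums of 1962 CPM in WT 1 and 880 CPM in WT 2; their part in the histone values was not tested. Taken as the median distance from the WT mean on the log2 scale, H4 members stood at -0.80 in KO 1 and -1.38 in KO 2, against -0.30 in WT 1 and 0.30 in WT 2. The 44 other members stood at -0.01 in KO 1 and -0.30 in KO 2, against -0.47 in WT 1 and 0.47 in WT 2. H2a, H2b and H3 had their lowest median in WT 1 and H1 in KO 2, while H4 had its lowest in KO 2 and its next lowest in KO 1. KO 2 was the lowest library for 12 of 12 H4 members and 15 of 44 others, against 27.4% of all features, and WT 1 was the lowest for 0 of 12 H4 members and 23 of 44 others, against 20.4%. KO 1 lay below WT 1 for 8 of 12 H4 members and 8 of 44 others, against 48.3% of all features, and KO 2 lay below WT 1 for 12 of 12 and 17 of 44, against 50.1%. Set against WT 2, 52 of 56 members were lower in KO 1 and 54 of 56 in KO 2, where 49.1% and 49.5% of all features were. The KO libraries also differed from each other: KO 1 was above KO 2 for 45 of 56 members, against 51.3% of all features. It was over 2-fold above KO 2 for 8 members, against 5.17%, and over 2-fold below it for 1, against 4.82%.

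**Figure D2:**
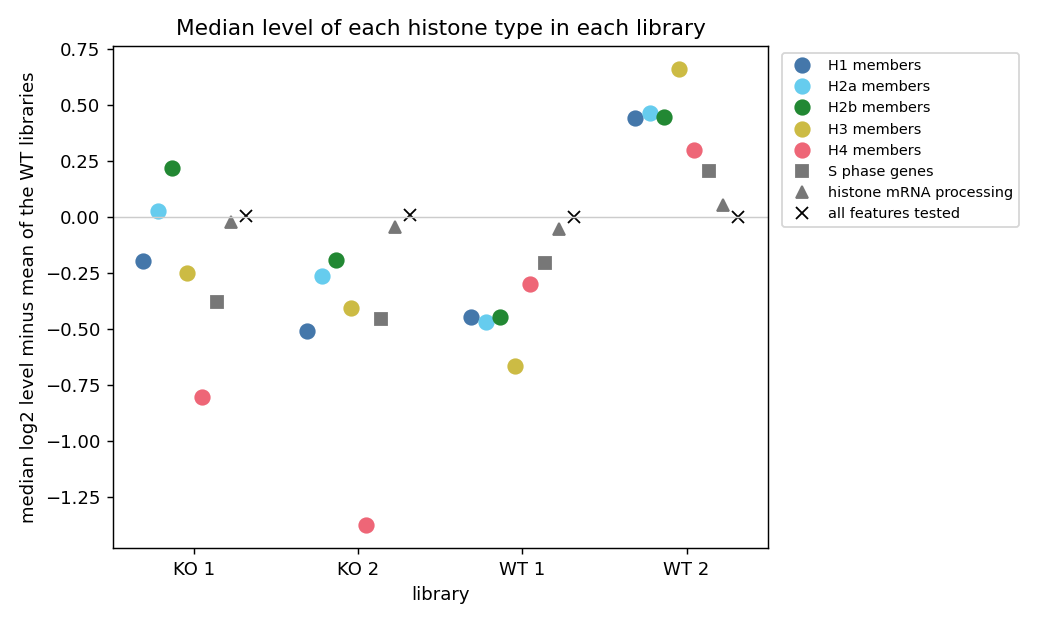
Median log2 level of the members of each histone type in each library, as the distance from the mean of the WT libraries, with S phase genes, histone mRNA processing genes and all features for reference. H4 lies at -0.80 and -1.38 in KO 1 and KO 2 and at -0.30 and 0.30 in WT 1 and WT 2; every histone type is highest in WT 2.

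Leaving out WT 2 removed the lower placing of the members as a whole. Without it the median over all 56 was 0.16 with 22 lower, and 1 of 4 H1, 4 of 13 H2a, 1 of 16 H2b and 5 of 9 H3 members were lower. H4 kept a median of -0.79 with 11 of 12 lower. Without WT 1 the medians were -0.86 over all members and -1.45 over H4; without KO 1 they were -0.51 and -1.38, and without KO 2 they were -0.11 and -0.81.

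All H4 genes encode the core histone that pairs with H3, and nearly all of them the same protein. Hist1h4k had 45.5 and 24.0 CPM in the KO libraries and 86.2 and 133 CPM in the WT libraries (log2 fold change -1.69, SE 0.38). Both KO libraries lay below both WT libraries. It was the member with the smallest p, although its adjusted p by limma was 0.655. Hist1h4f had 80.7 and 52.5 CPM in the KO libraries and 138 and 181 CPM in the WT libraries (-1.28, SE 0.29). Hist1h4i had 38.9 and 26.2 CPM in the KO libraries and 88.7 and 58.9 CPM in the WT libraries (-1.18, SE 0.32). Hist1h4i was the 1 H4 member whose level was higher in WT 1 than in WT 2, and its KO libraries still lay below both.

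A further 5 members had the order of Hist1h4k and Hist1h4f, with KO 2 lowest and WT 2 highest. Hist1h4j had 37.6 and 14.2 CPM in the KO libraries and 61.0 and 88.7 CPM in the WT libraries (-1.66, SE 0.47). Hist1h4c had 70.0 and 29.2 CPM in the KO libraries and 93.0 and 146 CPM in the WT libraries (-1.36, SE 0.45). The groups did not overlap for either gene. Hist1h4b had 29.6 and 29.2 CPM in the KO libraries and 40.2 and 78.6 CPM in the WT libraries (-0.93, SE 0.35). Hist1h4a had 62.6 and 47.2 CPM in the KO libraries and 78.9 and 109 CPM in the WT libraries (-0.77, SE 0.28). Hist1h4h had 68.1 and 51.6 CPM in the KO libraries and 73.0 and 108 CPM in the WT libraries (-0.58, SE 0.29). These 3 also showed no overlap, with KO 1 close to WT 1 for Hist1h4h.

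In the remaining 4 H4 members KO 1 lay above WT 1, so the groups overlapped. Hist1h4d, which held more H4 reads than any other member, had 441 and 269 CPM in the KO libraries and 435 and 998 CPM in the WT libraries (-0.93, SE 0.45). Hist1h4m had 51.0 and 9.43 CPM in the KO libraries and 45.6 and 192 CPM in the WT libraries (-2.09, SE 0.92). Its fold change was the most negative of the members and its spread within groups the widest of the H4 set. Hist2h4, in the Hist2 cluster on chromosome 3, had 32.8 and 21.5 CPM in the KO libraries and 32.7 and 42.6 CPM in the WT libraries (-0.49, SE 0.30). Hist4h4, which lies alone on chromosome 6, had 23.2 and 12.99 CPM in the KO libraries and 13.8 and 26.5 CPM in the WT libraries (-0.14, SE 0.43). Its groups overlapped, and its promoter holds GGTCCG and its mRNA the H4 stem-loop, as printed.

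**Figure D3:**
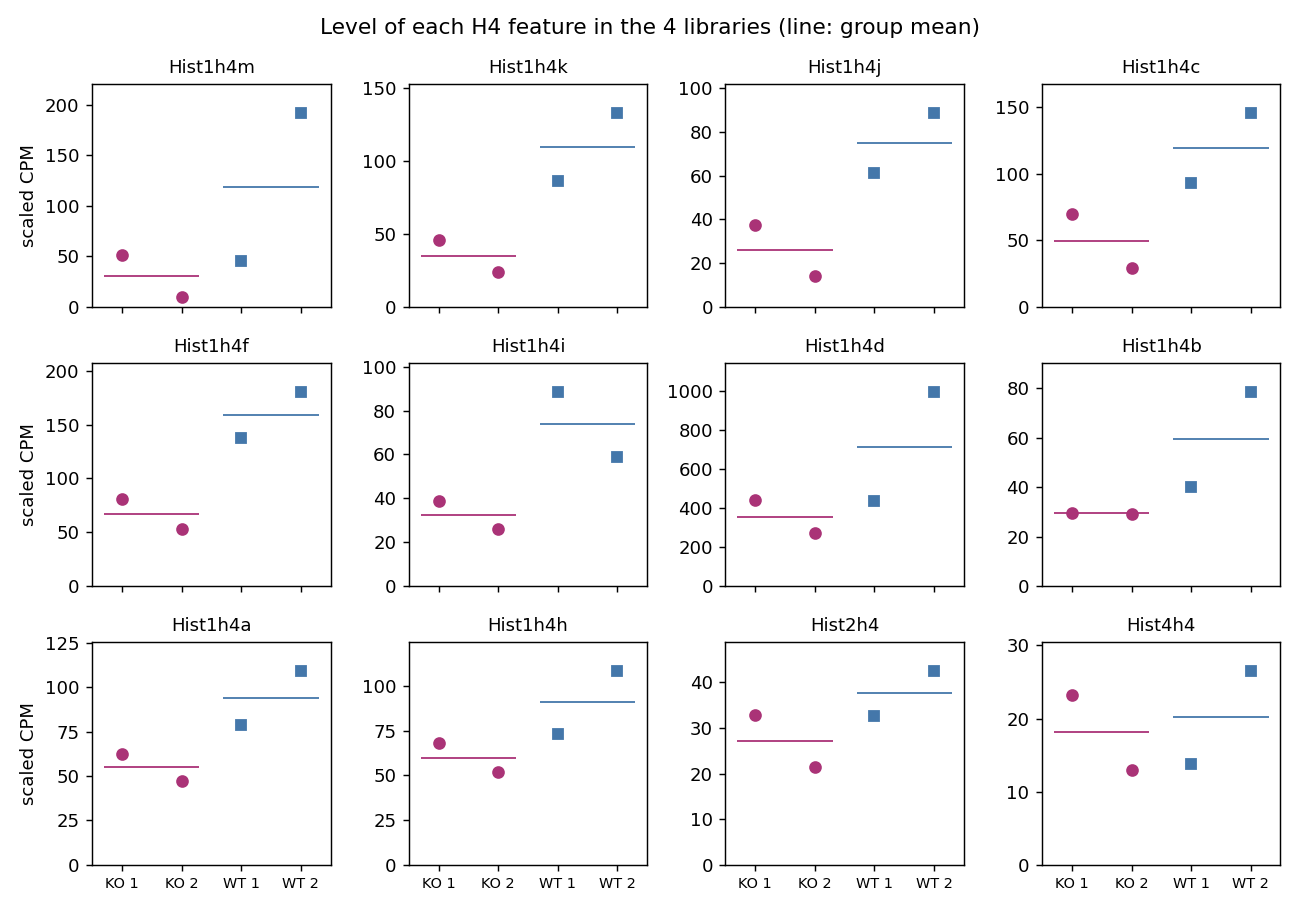
Scaled CPM of each of the 12 H4 members in KO 1, KO 2 (circles), WT 1 and WT 2 (squares), with the group mean as a line; each panel has its own axis starting at 0. KO 2 is the lowest library in all 12 panels, and KO 1 lies below WT 1 in 8 of them.

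Calls were made for a few H4 genes under other settings. DESeq2 on the recovered reads called Hist1h4k (adjusted p = 0.0365) among 10 features, 0.268% of the 3732 with an adjusted p. Only 34 of the 56 members had an adjusted p. Hist1h4b, Hist1h4i, Hist1h4j, Hist2h4 and Hist4h4 had none, so DESeq2 could not call them. Without KO 1, limma called Hist1h4j, Hist1h4k, Hist1h4c and Hist1h4m, with log2 fold changes of -2.36, -2.15, -1.99 and -3.30. In that fit KO 2 is the lone KO library and is assumed to vary like the WT group. KO 2 had the fewest reads and was the lowest library for 12 of 12 H4 members, so these calls rest on 1 library. The fit without KO 2 did not call these genes.

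Expressed as a share of histone reads, which does not depend on the scaling between libraries, H4 took 12.3% in KO 1 (95% Wilson interval 12.1 to 12.5%) and 8.76% in KO 2 (8.48 to 9.05%), against 18.7% in WT 1 (18.4 to 19.1%) and 17.2% in WT 2 (17.1 to 17.4%). The means were 10.5 ± 2.51% in KO libraries and 18.0 ± 1.05% in WT libraries (SD, n = 2 each), a difference of -7.44 percentage points. The H4 share was not among the results planned beforehand. An exact two-sided permutation test gave p = 0.333, the smallest value that 2 against 2 libraries allow. Any 2 against 2 libraries without overlap give that value, so the test cannot show a difference. H2a took the opposite place, with 31.7 and 35.5% in KO libraries and 27.5 and 29.3% in WT libraries. H2b took 34.6 and 33.3% in KO libraries and 30.9 and 30.0% in WT libraries, also without overlap. H1 took 15.0 and 16.3% in KO libraries and 17.1 and 16.6% in WT libraries, and H3 3.74 and 3.86% against 3.80 and 4.40%. Shares sum to a fixed total, so a lower share of 1 type raises the others. The intervals cover counting error only.

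Ratios between types avoid that sum. The ratio of H4 to H3 reads was 3.29 and 2.27 in KO libraries and 4.93 and 3.92 in WT libraries. H4 to H2a was 0.388 and 0.247 in KO libraries and 0.680 and 0.589 in WT libraries. H4 to H2b was 0.355 and 0.263 in KO libraries and 0.605 and 0.574 in WT libraries, and H4 to H1 was 0.820 and 0.537 against 1.10 and 1.04. In all 4 ratios both KO libraries lay below both WT libraries. The 4 share the same H4 reads, so they are not separate observations. Of the 3 ratios computed without H4, all of them over H2b, 2 were also without overlap. H3 to H2b was 0.108 and 0.116 in KO libraries and 0.123 and 0.147 in WT libraries, and H1 to H2b was 0.433 and 0.490 in KO libraries and 0.552 and 0.553 in WT libraries. H2a to H2b overlapped, at 0.917 and 1.07 in KO libraries and 0.889 and 0.975 in WT libraries. Ratios without overlap were therefore not limited to those with H4.

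**Figure D4:**
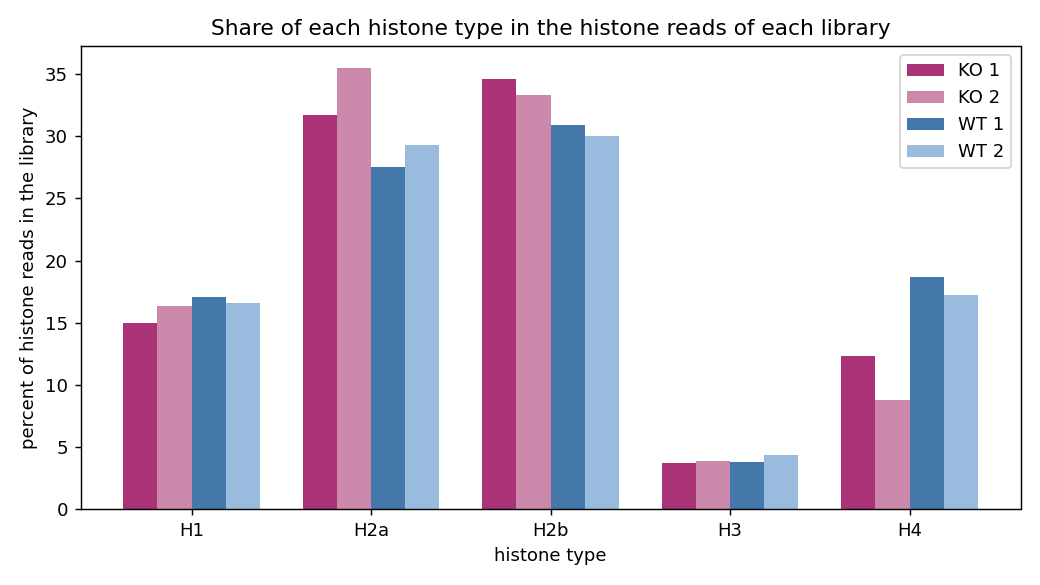
Percent of the histone reads of each library that fell on each histone type, KO libraries left of WT libraries; the mixed features are left out. The H4 bars are 12.3 and 8.76% in KO libraries and 18.7 and 17.2% in WT libraries.

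Linker histones bind the DNA between nucleosomes. Hist1h1c (current symbol H1f2), the H1 gene with the highest level, had 566 and 673 CPM in the KO libraries and 593 and 1132 CPM in the WT libraries (-0.41, SE 0.36). Hist1h1b (H1f5) had 265 and 176 CPM in the KO libraries and 182 and 411 CPM in the WT libraries (-0.34, SE 0.43). Hist1h1a (H1f1) had 255 and 142 CPM in the KO libraries and 204 and 365 CPM in the WT libraries (-0.52, SE 0.40). The groups overlapped in each case, with WT 2 the highest and WT 1 among the KO values. Hist1h1d (H1f3) had 110 and 103 CPM in the KO libraries, against 102 and 176 CPM in the WT libraries (-0.33, SE 0.30), so 3 libraries were alike and WT 2 was higher.

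H2A and H2B form the dimers on either side of the nucleosome core. Of the H2a genes with the highest levels, Hist1h2af had 513 and 759 CPM in the KO libraries and 378 and 670 CPM in the WT libraries (0.31, SE 0.36). Hist1h2ab had 506 and 610 CPM in the KO libraries and 320 and 693 CPM in the WT libraries (0.24, SE 0.39). Hist2h2ac had 380 and 212 CPM in the KO libraries and 303 and 521 CPM in the WT libraries (-0.48, SE 0.39). All 3 overlapped between groups. The 2 H2a members without overlap both belong to the Hist2 cluster. Hist2h2aa2 had 1.96 and 3.56 CPM in the KO libraries and 19.5 and 6.18 CPM in the WT libraries (-2.02, SE 0.61), but all of its 75-base windows also occur in transcripts of other genes, so its reads may be those of a copy. Hist2h2ab had 65.9 and 26.0 CPM in the KO libraries and 73.0 and 95.5 CPM in the WT libraries (-1.01, SE 0.45). Hist1h2ah had 201 and 58.0 CPM in the KO libraries and 141 and 491 CPM in the WT libraries (-1.28, SE 0.74), and the groups overlapped.

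No H2b member separated the groups. Hist1h2bb had 637 and 503 CPM in the KO libraries and 540 and 996 CPM in the WT libraries (-0.37, SE 0.35). Hist2h2bb had 467 and 272 CPM in the KO libraries and 321 and 857 CPM in the WT libraries (-0.56, SE 0.51). Hist1h2bn had 517 and 441 CPM in the KO libraries and 279 and 572 CPM in the WT libraries (0.26, SE 0.37). In these 3 genes, which had the highest H2b levels, WT 2 was the highest library. Hist1h2bf had 71.1 and 61.4 CPM in the KO libraries and 27.4 and 64.4 CPM in the WT libraries (0.65, SE 0.41). Hist1h2bj had 60.6 and 32.7 CPM in the KO libraries and 50.9 and 83.4 CPM in the WT libraries (-0.55, SE 0.38). Hist2h2be, whose transcript shares no 75-base window with another gene, had 29.4 and 25.1 CPM in the KO libraries and 17.1 and 26.9 CPM in the WT libraries (0.34, SE 0.30). WT 1 was the lowest library for both Hist1h2bf and Hist2h2be. Of 7 H2a and H2b gene pairs whose promoter windows overlap head to head, 4 had estimates of the same sign.

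H3 is the partner of H4 in the tetramer at the centre of the nucleosome. Hist1h3b had 20.2 and 10.9 CPM in the KO libraries and 25.4 and 46.8 CPM in the WT libraries (-1.22, SE 0.42; limma adjusted p = 0.655). Hist1h3i had 13.7 and 18.7 CPM in the KO libraries and 20.7 and 26.0 CPM in the WT libraries (-0.54, SE 0.29). These were the 2 H3 members whose groups did not overlap. Hist1h3e had 95.2 and 81.9 CPM in the KO libraries and 70.3 and 182 CPM in the WT libraries (-0.36, SE 0.44). Hist1h3c had 49.3 and 56.4 CPM in the KO libraries and 54.6 and 102 CPM in the WT libraries (-0.50, SE 0.34). Hist1h3a had 51.4 and 36.7 CPM in the KO libraries and 30.6 and 83.9 CPM in the WT libraries (-0.22, SE 0.48). In the last 3 the KO values lay within or close to the range of the WT libraries. The joint features Hist2h2aa1 // Hist2h3c1 (-0.51, SE 0.50) and Hist1h2ad // Hist1h3d (0.36, SE 0.40) also overlapped between groups.

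Near-identical copies limit what single members show. The share of a transcript's 75-base windows found in no other transcript had a median of 76.5% over H4 genes, 99.3% over H1, 61.1% over H2b, 41.4% over H3 and 34.5% over H2a. Within H4 it was 31.9% for the 312-base annotated transcript of Hist1h4k, whose other windows were shared most with Hist1h4a, and 10.98% for Hist1h4m. Among the 7 H4 members with at least 75% unique windows, 7 were lower, 4 had both KO libraries below both WT libraries and the median was -1.18. Among the 13 other members with at least 75% unique windows, 9 were lower, 1 had both KO libraries below both WT libraries and the median was -0.18. Over all features, 20% had both KO libraries below both WT libraries. How multiply mapped reads were counted is not given in the sources used here, nor is whether strand was used, so reads of copies and of overlapping antisense genes may be mixed.

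Transcript length moved with the fold changes as well. Among non-members, the median log2 fold change was -0.26 for 121 features with transcripts under 500 bases, -0.25 for 431 of 500 to 1000 bases and 0.18 for 1418 over 6000 bases. The median transcript was 633 bases long for H4 members and 532 bases for the others. Of the 56 members, 22 had transcripts under 500 bases, 21 of 500 to 1000 and 13 of 1000 or more. The estimate was lower in KO for 79 of 121 non-members under 500 bases and 306 of 431 of 500 to 1000 bases. Both KO libraries lay below both WT libraries for 29 and 158 of these, and above them for 14 and 32. For the non-members under 500 bases the median distances from the WT mean were -0.29 in KO 1 and -0.22 in KO 2, against -0.20 in WT 1 and 0.20 in WT 2. For those of 500 to 1000 bases they were -0.38 in KO 1 and -0.10 in KO 2, against -0.03 in WT 1 and 0.03 in WT 2. The part of length in the histone result was not tested.

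Genes that regulate histone mRNA were examined as well. Of 17 listed genes for histone gene transcription 13 were measured, 5 lower and 8 higher, and none was called. Npat, the cyclin E-CDK2 target that activates histone clusters, had 112 and 119 CPM in the KO libraries and 102 and 122 CPM in the WT libraries (0.05, SE 0.22), with overlapping groups. Hinfp, which in human cells binds the GGTCCG-containing element of H4 promoters and was chosen after its values were seen, had 14.0 and 15.8 CPM in the KO libraries and 10.7 and 12.2 CPM in the WT libraries (0.38, SE 0.27). Pou2f1, an octamer-binding factor of H2b promoters, had 49.4 and 42.5 CPM in the KO libraries and 27.7 and 16.1 CPM in the WT libraries (1.116, SE 0.32; limma adjusted p = 0.655). Both KO libraries lay above both WT libraries for Hinfp and Pou2f1. This order was found for 4 of the 13 measured and the reverse for 2, against 21.1% and 20% of all features. Casp8ap2, which works with NPAT at histone loci, had 22.5 and 10.3 CPM in the KO libraries and 23.2 and 30.5 CPM in the WT libraries (-0.80, SE 0.41), and Ccna2, the S phase cyclin A2, had 125 and 124 CPM in the KO libraries and 130.2 and 209 CPM in the WT libraries (-0.40, SE 0.28).

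Of 26 listed genes for 3′ end processing and turnover of histone mRNA 23 were measured, with a median of -0.01, 12 lower, 11 higher and none called. Slbp, which binds the stem-loop, had 78.4 and 68.5 CPM in the KO libraries and 93.5 and 97.8 CPM in the WT libraries (-0.38, SE 0.22). Ncbp1, the large subunit of the nuclear cap-binding complex, had 88.8 and 55.3 CPM in the KO libraries and 105 and 113 CPM in the WT libraries (-0.63, SE 0.29). Wdr33, a poly(A) signal recognition factor, had 29.0 and 31.7 CPM in the KO libraries and 47.8 and 38.1 CPM in the WT libraries (-0.49, SE 0.24). For these 3 both KO libraries lay below both WT libraries. That order held for 6 of the 23 measured and the reverse for 4, against 20% and 21.1% of all features. Fip1l1, a subunit of the polyadenylation complex, had 271 and 345 CPM in the KO libraries and 316 and 299 CPM in the WT libraries (-0.01, SE 0.24), with overlapping groups.

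Of 30 listed histone chaperone and assembly genes 25 were measured, 20 lower and 5 higher, with a median of -0.17, against 48.6% lower among all features. Both KO libraries lay below both WT libraries for 10 and above them for 3, against 20% and 21.1% of all features. At an unadjusted p under 0.05, 3 were lower, against 4%, and 0 were higher, against 3.58%. Hat1, which acetylates newly made H4, had 174 and 184 CPM in the KO libraries and 261 and 314 CPM in the WT libraries (-0.67, SE 0.23). Anp32e, a chaperone that removes H2A.Z, had 136 and 167 CPM in the KO libraries and 248 and 221 CPM in the WT libraries (-0.63, SE 0.23). The groups did not overlap for either. Npm1, an abundant nucleolar chaperone, had 784 and 858 CPM in the KO libraries and 971 and 1208 CPM in the WT libraries (-0.40, SE 0.26).

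Histones made outside S phase served as another comparison, with 11 of 14 measured, 7 lower, 4 higher and a median of -0.18. H2afz, the gene for the variant H2A.Z, had 104 and 62.1 CPM in the KO libraries and 126 and 291 CPM in the WT libraries (-1.25, SE 0.45). Cenpa, the centromeric H3 variant, had 39.2 and 45.6 CPM in the KO libraries and 52.0 and 74.4 CPM in the WT libraries (-0.56, SE 0.27). Both were without overlap and neither was called by limma (adjusted p = 0.655 and 0.663). Among the 11 measured, 3 were lower without overlap and 1 higher, against 20% and 21.1% of all features. H3f3b, an H3.3 gene, had 1071 and 807 CPM in the KO libraries and 977 and 1134 CPM in the WT libraries (-0.18, SE 0.28).

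Genes used in S phase, the phase in which the histone members are transcribed, had 49 of 50 measured, 45 lower, against 48.6% of all features, and 28 with both KO libraries below both WT libraries, against 20%. Their median was -0.38, and 0 were called. Their median distances from the WT mean were -0.38 in KO 1 and -0.46 in KO 2, against -0.21 in WT 1 and 0.21 in WT 2. Rpa3, a subunit of the single-strand DNA binding complex, had 24.6 and 22.6 CPM in the KO libraries and 57.8 and 40.9 CPM in the WT libraries (-1.04, SE 0.27). Pcna, the sliding clamp, had 258 and 239 CPM in the KO libraries and 373 and 568 CPM in the WT libraries (-0.89, SE 0.28). Rrm1, a subunit of the enzyme that makes deoxyribonucleotides, had 523 and 529 CPM in the KO libraries and 792 and 975 CPM in the WT libraries (-0.74, SE 0.25). None of the 3 overlapped between groups. Neuron markers stood at 1.47 in KO 1 and -0.18 in KO 2 on the same scale, against 0.05 in WT 1 and -0.05 in WT 2. The part of S phase genes and of neuron markers in the H4 values was not tested.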

How the data were processed

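Strand-specific total RNA libraries depleted of ribosomal RNA were sequenced at 75 bases in 1 lane, per the labels' protocols. Of tools, the submitters' processing notes list STAR 2.3.0, SAMtools 0.1.19, DESeq 1.12.1, Picard 1.119 and FastQC 0.10.1 without saying what each did. Neither the build, the annotation nor how reads were counted and features filtered is stated in what was used here. Each deposited value is a signal, which the authors made by dividing a feature's read count by a factor of its library. In every library 100% of values were whole multiples of 1 step within a tolerance of 0.01 step, so reads were recovered; the step of WT 2 was taken from the spacing of its values. Deposited totals differed 4.10-fold between libraries, so TMM scaling (edgeR 4.0.16) was applied first. Features without a symbol held 13.9% and 21.8% of reads in KO 1 and KO 2, and 11.9% and 12.7% in WT 1 and WT 2. A level of 3 reads equals 0.255, 0.534, 0.417 and 0.137 CPM in KO 1, KO 2, WT 1 and WT 2, which covers counting error only.

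A filter (filterByExpr, minimum 10) left 10976 of 11160 features, and limma 3.58.1 with trend was fitted in R 4.3.3 to log2(scaled value + 1), two-sided, with Benjamini-Hochberg adjustment over all features and a threshold of 0.05. The pseudocount understates changes of low features. The functions were tested on simulated data. Histone members and gene lists were chosen with earlier results of these data known. Named are, per type, the 3 members with the highest level and the 3 with the smallest p, all H4 members, per list the 2 with the smallest p and the 1 with the highest level, and Slbp, Npat and Mcph1; H4 members beyond the rule and the mixed features were added after their values were seen. Sequences come from RefSeq (GRCm38.p6 promoters) and GENCODE M21 transcripts, in which all 58 histone symbols were found. Alternatives were other scalings, filters, pseudocounts, limma-voom, edgeR's quasi-likelihood test and DESeq2 1.42.0 on recovered reads, a replicate block, joint features left out, and each library left out.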

Additional observations from a re-analysis of the deposited data

How the results depend on the processing

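With 2 pools per group, and totals from 5975471 to 22347416 reads, calls rested on single libraries. Leaving out each library in turn gave 0 to 178 called features, the 178 without KO 2, and 0 to 4 called members. Medians ran from -0.86 to 0.16 over all members, -0.90 to 0.0552 over H1, -0.85 to 0.37 over H2a, -0.50 to 0.29 over H2b, -0.95 to -0.05 over H3 and -1.45 to -0.79 over H4. Members lower numbered 22 to 51 of all and 11 to 12 of H4, and the H4 share differed by -9.21 to -5.67 points. In the same fits the fold change of some genes changed sign: Fip1l1 -0.19 to 0.16, H3f3b -0.38 to 0.0142, Hist1h1b -0.93 to 0.25, Hist1h1c -0.88 to 0.0565, Hist1h1d -0.72 to 0.0539, Hist1h2ab -0.32 to 0.79, Hist1h2af -0.10 to 0.72, Hist1h2bb -0.82 to 0.0661, Hist1h2bn -0.26 to 0.77, Hist1h3a -0.95 to 0.50, Hist1h3e -1.04 to 0.33, Hist2h2bb -1.26 to 0.15 and Npat -0.0739 to 0.18. On values as deposited 6 features were called, the medians were -1.64 (all members), -1.65 (H1), -1.32 (H2a), -1.20 (H2b), -1.67 (H3) and -2.33 (H4), and the signs of Hist1h2af (-0.96), Hist1h2ab (-1.03), Hist1h2bn (-1.01), Hist1h2bf (-0.62), Hist2h2be (-0.93), Pou2f1 (-0.15) and Npat (-1.22) turned; the median of all features there is -1.25. Fip1l1 turned to 0.0322 with upper-quartile scaling and 0.0011 with edgeR. DESeq2 called 10 features and 1 member, of 3732 features and 34 members with an adjusted p. Leaving out Hist1h4d made the H4 share difference -5.35 points. The cause was not tested, except that fewer samples or unscaled values enter by construction. Replicates share only a number: the correlation of WT 1 minus WT 2 with KO 1 minus KO 2 was -0.30 over 10976 features. The replicate block called 0 features and 0 members (476 features at an unadjusted p under 0.05), and the crossed block, chosen after seeing the data, called 0 (1484).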
